A study of Mus musculus with 10 samples.

Results

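Chemokines are small secreted proteins that draw leukocytes along a gradient, and chemokine receptors are the membrane proteins through which the cells sense them. The genes described here were those of the expression table named Ccl, Cxcl, Ccr or Cxcr with a number, together with Cx3cl1 and Cx3cr1. The rule used names only. It found 42 of 16875 gene names, of which 33 encode ligands and 9 encode receptors. RNA sequencing covered 10 macrodissected colon tumors of C57BL/6 mice, 5 control and 5 Villin-WlscKO. All of the mice had been given azoxymethane, a mutagen, followed by repeated dextran sulfate sodium in the drinking water, which injures the colon epithelium (AOM/DSS), and all were young adults at the start. Control mice were Wls flox/flox and carried no Cre, and control tumors received no tamoxifen unless stated otherwise, according to the study's legends. Villin-WlscKO mice were Villin-Cre ERT2, Wls flox/flox and received tamoxifen before collection, at the longer of the intervals used in the study. Villin-Cre ERT2 acts in intestinal epithelial cells, including those of the tumor, so that leukocytes and stroma keep an intact Wls, which encodes a protein needed for Wnt secretion. The number of mice behind the tumors is not stated, so n counts tumors and each p-value measures the spread between tumors.

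Several branches of the system are relevant to an inflamed colon. Cxcl9, Cxcl10 and Cxcl11 are induced by interferon, and they act on Cxcr3, which activated T cells and NK cells carry. Cxcl1, Cxcl2, Cxcl3 and Cxcl5 act on Cxcr2 of neutrophils and are well known targets of NF-kappaB. CC ligands such as Ccl2, Ccl7 and Ccl8 call monocytes through Ccr2 and related receptors, and Ccl3, Ccl4 and Ccl5 act on monocytes and T cells. Many genes of a branch lie next to each other in the genome.

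Promoter windows of RefSeq, on GRCm38.p6, were available for 30 of the 42 genes, with 33 windows, each running from 250 bases before to 50 bases after a transcription start. The windows of the interferon-linked genes Cxcl9 (chr5:92328030-92328329, minus strand) and Cxcl10 (chr5:92348840-92349139, minus strand) are shown beside those of the neutrophil-attracting genes Cxcl1 (chr5:90890995-90891294, plus strand), Cxcl2 (chr5:90903649-90903948, plus strand) and Cxcl3 (chr5:90785851-90786150, plus strand), because both sets carry NF-kappaB-like letters, while of these 5 genes only Cxcl9 and Cxcl10 passed the test between the groups given below. Each is written from 5′ to 3′ on the strand of its gene. Capitals mark matches to an NF-kappaB-like motif (GGGAA and CC with any 3 bases between them), and in Cxcl10 also to the core of the interferon-stimulated response element (GAAA and GAAA with any 2 bases between them), each searched on both strands.
Cxcl9: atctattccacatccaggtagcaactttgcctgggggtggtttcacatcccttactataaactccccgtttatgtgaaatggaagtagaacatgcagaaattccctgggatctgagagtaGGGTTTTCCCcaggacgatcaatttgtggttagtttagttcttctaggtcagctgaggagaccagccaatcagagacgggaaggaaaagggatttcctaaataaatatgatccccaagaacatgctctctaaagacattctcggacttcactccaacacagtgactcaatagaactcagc
Cxcl10: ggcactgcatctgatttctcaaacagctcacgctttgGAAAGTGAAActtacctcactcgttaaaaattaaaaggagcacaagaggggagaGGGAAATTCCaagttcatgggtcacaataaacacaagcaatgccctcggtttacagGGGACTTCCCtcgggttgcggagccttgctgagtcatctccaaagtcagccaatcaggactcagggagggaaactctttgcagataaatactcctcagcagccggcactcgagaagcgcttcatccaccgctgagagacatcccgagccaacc
Cxcl1: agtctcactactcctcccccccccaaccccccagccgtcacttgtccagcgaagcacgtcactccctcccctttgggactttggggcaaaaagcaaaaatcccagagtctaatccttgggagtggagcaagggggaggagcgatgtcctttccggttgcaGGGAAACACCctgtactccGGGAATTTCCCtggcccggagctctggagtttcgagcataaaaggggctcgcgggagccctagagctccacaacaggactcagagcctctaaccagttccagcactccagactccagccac
Cxcl2: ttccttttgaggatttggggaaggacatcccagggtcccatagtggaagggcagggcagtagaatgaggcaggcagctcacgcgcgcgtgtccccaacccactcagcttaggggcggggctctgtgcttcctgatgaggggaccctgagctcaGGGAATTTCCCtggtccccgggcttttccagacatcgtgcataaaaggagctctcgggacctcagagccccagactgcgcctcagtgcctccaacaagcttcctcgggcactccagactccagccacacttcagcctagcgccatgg
Cxcl3: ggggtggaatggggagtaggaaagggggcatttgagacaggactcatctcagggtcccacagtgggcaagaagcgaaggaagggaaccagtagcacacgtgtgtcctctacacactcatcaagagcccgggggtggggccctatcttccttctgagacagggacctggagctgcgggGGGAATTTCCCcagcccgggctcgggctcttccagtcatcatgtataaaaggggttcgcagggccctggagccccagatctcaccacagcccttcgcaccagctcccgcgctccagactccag
The NF-kappaB-like motif was found in 7 of the 33 windows (21.2%), those of Ccl1, Ccl20, Cxcl1, Cxcl2, Cxcl3, Cxcl9 and Cxcl10, and in 5.78% of all 32851 RefSeq promoter windows. The interferon-stimulated response element core was found in 2 windows (6.06%), those of Cxcl10 and Cxcl14, and in 3.44% of all windows. The gamma-activated site, TTCNNNGAA, was found in 2 windows (6.06%), those of Ccl17 and Cxcl14, and in 8.3% of all windows. Matches to different motifs overlapped in 0 of the windows. The run GGGAATTTCCC in Cxcl1, Cxcl2 and Cxcl3 reads as a match on both strands. A match describes letters only.

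The values were FPKM (fragments per kilobase of transcript and number of mapped fragments), so that levels of different genes can be compared. Read numbers could not be recovered from them, so the depth is unknown, and the total FPKM of a tumor ranged from 1265992 to 1533885 in the control group and from 1207683 to 1341494 in the other. Wls was at 61.3 to 79.9 FPKM in control and at 2.03 to 11.7 FPKM in Villin-WlscKO tumors. Xist, transcribed from the inactive X chromosome of females, was at 0.0366 to 0.420 FPKM in control and at 439 to 701 FPKM in Villin-WlscKO tumors, and the Y-linked Eif2s3y was at 30.4 to 46.6 and at most 0.138 FPKM. Genotype, sex and tamoxifen therefore cannot be told apart in any result. Epithelial transcripts were measurable in every tumor, but the epithelial share of the tissue was not measured. The 7 epithelial markers, of which 0 passed the test described next, summed to 5369 to 7563 FPKM in control and to 6352 to 8371 FPKM in Villin-WlscKO tumors. All 7 had estimates above 0, with a median of 0.20 on the log2 scale, and Vil1, Cdx2 and Krt8 reached an unadjusted p under 0.05. Villin-WlscKO tumors 2 and 3 stood apart by Krt5, a keratin of stratified squamous epithelium, which reached 669 FPKM there and at most 0.315 FPKM in the other 8 tumors, so counts and several estimates are also given without this pair. The pair also kept more Wls, at 11.6 and 11.7 FPKM, than Villin-WlscKO tumors 1, 4 and 5, at 2.81, 3.61 and 2.03 FPKM. In whole tumors, more cells of a type and more RNA per cell cannot be told apart.

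Chemokine genes that differed between the groups were all higher in Villin-WlscKO tumors. Of the 42 genes, 39 had a mean of at least 0.5 FPKM over the 10 tumors and were tested, and Cxcl11, Ccl1 and Cxcr3 were below it. The ligands Cxcl9, Cxcl10, Ccl5, Ccl6, Ccl9 and Ccl8 and the receptors Ccr2 and Cxcr6 rose, that is 8 of 39 genes, and 0 fell (limma on log2(FPKM + 1), two-sided, adjusted p under 0.05 over 16757 genes). Over all genes tested, 6.12% were called higher and 4.75% lower. These shares became 8.27% and 2.46% when each tumor was scaled to a common FPKM sum, and 5.34% and 6.72% after quantile normalization, with 8 chemokine genes higher and 0 lower in both. At an unadjusted p under 0.05, 14 chemokine genes were higher and 2, Cxcl14 and Ccl3, were lower. The estimate was above 0 for 32 of the 39 genes, and its median was 0.44 on the log2 scale, against 0.0073 over all genes tested. Without Villin-WlscKO tumors 2 and 3 it was above 0 for 29 of the 39 genes, with a median of 0.23, and the estimates of Ccr1, Cxcl13 and Ccl22 turned below 0, to -0.019, -0.12 and -0.060. Groups without overlap were seen for 8 of the 42 genes, all higher in Villin-WlscKO tumors, namely Cxcl9, Cxcl10, Cxcl11, Ccl5, Ccl6, Ccl9, Ccl8 and Ccr2, whereas 5.39% of all names were separated in this direction and 4.8% in the other. An exact permutation test over the 252 arrangements of the tumors cannot give a p below 0.00794. Groups without overlap always reach that value, so for these 8 genes it only restates the separation. Without Villin-WlscKO tumors 2 and 3, the genes called higher were Cxcl9, Cxcl10, Ccl5 and Ccl6, 4 in number, and Cxcl14 was called lower, and without control tumor 2 there were 5 genes called higher.

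**Figure D1:**
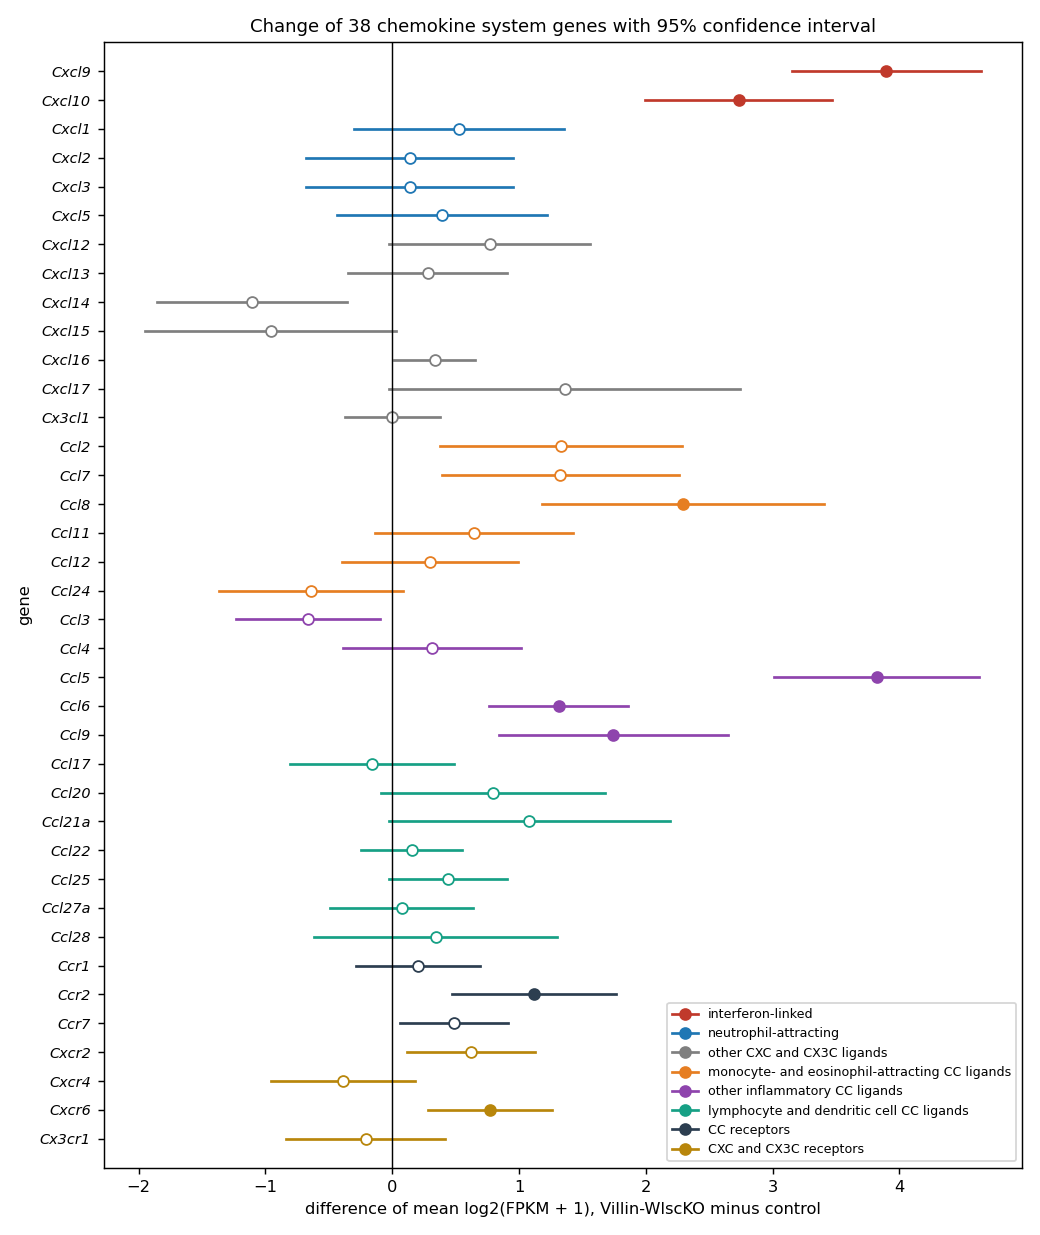
Log2 change of 38 of the 39 genes tested, as mean log2(FPKM + 1) of Villin-WlscKO less that of control tumors (horizontal axis), with its 95% confidence interval from limma as a line. Genes are ordered and coloured by role, and filled points mark the 8 genes past an adjusted p of 0.05, all to the right of 0.

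All 3 interferon-linked ligands were separated between the groups, and Cxcl9 and Ccl5 had the largest estimates of the chemokine genes tested, with an order that differed between settings. They lie between positions 92321347 and 92365485 of chromosome 5 (GRCm38, GENCODE M21). Cxcl9 was at 1.16, 0.724, 0.555, 0.973 and 0.219 FPKM in control tumors 1 to 5 and at 14.1, 47.7, 30.0, 31.4 and 12.8 FPKM in Villin-WlscKO tumors 1 to 5. The lowest Villin-WlscKO tumor was thus far above the highest control tumor. The mean rose from 0.726 ± 0.365 to 27.2 ± 14.3 FPKM (mean ± SD, n = 5 tumors each), a log2 change of 3.90 (SE 0.34, limma adjusted p = 6.67e-05).

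Cxcl10, the second ligand of Cxcr3, had more transcript in control tumors than Cxcl9. It was at 5.02, 2.099, 1.86, 4.09 and 1.56 FPKM in control tumors 1 to 5 and at 33.6, 36.5, 21.8, 23.6 and 11.4 FPKM in the Villin-WlscKO tumors. The groups did not overlap, and tumor 5 was the lowest of each group. It rose from 2.93 ± 1.54 to 25.4 ± 10.02 FPKM (mean ± SD, n = 5 tumors each), a log2 change of 2.73 (SE 0.33, limma adjusted p = 0.000671). Cxcl10 and Cxcl11 lie opposite to Art3 on the other strand, and whether strand was used in quantification is not given in the sources used here.

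Cxcl11, which GENCODE lists as a polymorphic pseudogene in this mouse strain, had little transcript in any tumor. Its values were 0.0515, 0.0420, 0.0201, 0 and 0.0882 FPKM in control tumors and 1.08, 1.00, 0.611, 0.581 and 0.424 FPKM in Villin-WlscKO tumors. The groups did not overlap (difference of mean log2(FPKM + 1) 0.73), which by itself fixes the exact permutation test at p = 0.00794. Limma without a filter gave an adjusted p of 0.00578. Added up per tumor, Cxcl9, Cxcl10 and Cxcl11 came to 1.87 to 6.23 FPKM in control tumors (median 2.87) and to 24.7 to 85.1 FPKM in Villin-WlscKO tumors (median 52.4). The order within the trio also differed, as Cxcl9 was above Cxcl10 in 0 of 5 control and in 4 of 5 Villin-WlscKO tumors.

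Genes of the interferon-gamma signal, which precede these ligands, were read from a list of 6. Of the 5 tested, Ifngr1 and Irf1 rose and 0 fell. The others each had an unadjusted p under 0.05 without passing. Ifngr2 was lower (log2 difference -0.27, limma adjusted p = 0.134). Jak1 and Jak2 were higher (log2 differences 0.13 and 0.23, limma adjusted p = 0.125 and 0.0888). Irf1, a transcription factor induced by interferon, rose from 48.8 ± 4.26 to 139 ± 17.5 FPKM (mean ± SD, n = 5 tumors each), a log2 change of 1.48 (SE 0.098, limma adjusted p = 1.18e-05). Ifng, the ligand, was below the filter, at 0 to 0.0584 FPKM in control and at 0.185 to 1.35 FPKM in Villin-WlscKO tumors.

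Several markers of T cells and of NK and cytotoxic cells were also higher in Villin-WlscKO tumors. Of 7 T cell markers tested, Cd3d, Cd3e, Cd3g and Cd8a rose and 0 fell, and the list summed to 10.4 to 16.2 FPKM in control and to 15.4 to 26.1 FPKM in Villin-WlscKO tumors. Of 4 NK and cytotoxic markers tested, Nkg7, Gzma and Gzmb rose and 0 fell, with sums of 1.05 to 6.95 and of 6.39 to 18.4 FPKM. Cd4 was at 3.07 ± 1.41 and 2.88 ± 1.02 FPKM (mean ± SD, n = 5 tumors each; limma adjusted p = 0.940). Lck was at 6.83 ± 2.32 and 6.97 ± 1.35 FPKM (mean ± SD, n = 5 tumors each; limma adjusted p = 0.885), and Cd5 did not pass either (limma adjusted p = 0.523). The part of these cells in the chemokine values was not tested.

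**Figure D2:**
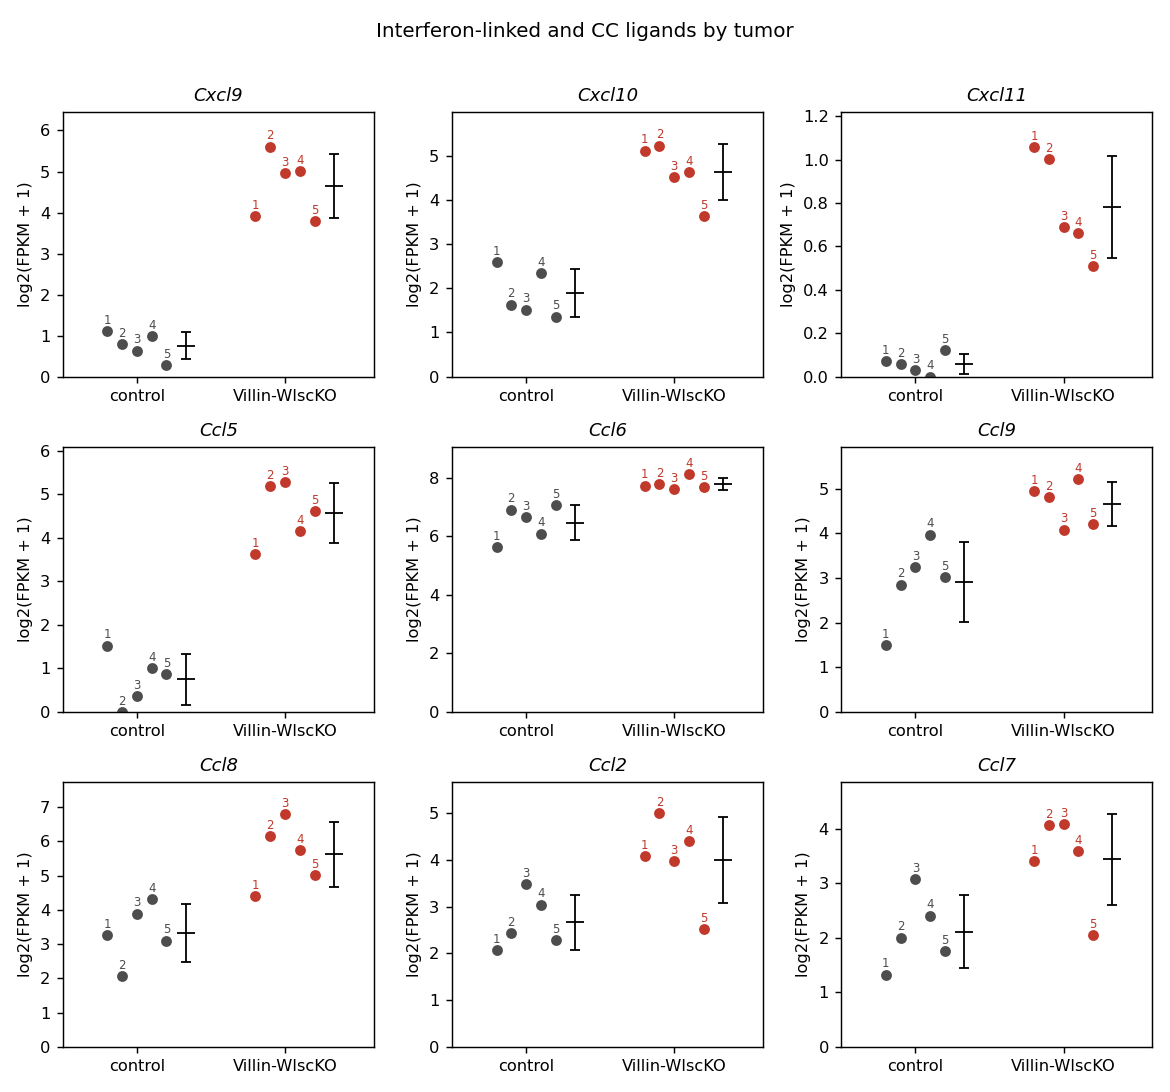
Values of 9 ligands as log2(FPKM + 1) (vertical axis) in the 5 control (grey) and the 5 Villin-WlscKO tumors (red), with tumor numbers beside the points and the mean ± SD as a bar beside each group. For Cxcl9, Cxcl10, Cxcl11, Ccl5, Ccl6, Ccl9 and Ccl8 every Villin-WlscKO tumor lies above every control tumor, and for Ccl2 and Ccl7 the groups overlap.

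Of the 4 neutrophil-attracting ligands, 0 passed the test, and 0 reached an unadjusted p under 0.05. Without control tumor 3, 1 of them reached an unadjusted p under 0.05. They lie at lower coordinates of chromosome 5 than the interferon-linked trio, within the stretch from 90759360 to 90905938. Cxcl5, made largely by epithelial cells, was at 292, 78.7, 352, 134 and 158 FPKM in control tumors 1 to 5 and at 221, 325, 239, 248 and 157 FPKM in Villin-WlscKO tumors 1 to 5. The Villin-WlscKO values all fell within the control range. The means were 203 ± 114 and 238 ± 60.5 FPKM (mean ± SD, n = 5 tumors each), a log2 difference of 0.39 with a 95% confidence interval from -0.44 to 1.22 (limma adjusted p = 0.569).

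Cxcl1 was at 12.9, 9.35, 37.2, 13.5 and 13.9 FPKM in control and at 38.8, 24.3, 15.7, 29.9 and 13.1 FPKM in Villin-WlscKO tumors. Control tumor 3 alone among the controls reached the level of the higher Villin-WlscKO tumors. The log2 difference was 0.53, with a 95% confidence interval from -0.30 to 1.35 (limma adjusted p = 0.422). Without control tumor 3 the log2 difference of Cxcl1 was 0.83 (SE 0.29, limma adjusted p = 0.101). Cxcl2 and Cxcl3 carried the same 10 values in the table, so it is not known which of them the reads came from, and the 42 names hold 41 distinct sets of values. The shared values were 24.2, 30.6, 72.8, 25.3 and 25.5 FPKM in control and 54.0, 55.5, 24.8, 40.3 and 18.9 FPKM in Villin-WlscKO tumors. Again control tumor 3 was the highest of all 10. The log2 difference was 0.14, with a 95% confidence interval from -0.68 to 0.96 (limma adjusted p = 0.862), and it changed sign, to -0.0098 and -0.020, when Villin-WlscKO tumor 1 or 2 was left out.

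The upper ends of these intervals were 0.96 to 1.35 on the log2 scale, so a rise of that size is not shown to be absent. Summed per tumor with the shared entry counted once, Cxcl1, Cxcl2 and Cxcl5 came to 119 to 462 FPKM in control (median 198) and to 189 to 405 FPKM in Villin-WlscKO tumors (median 314). Of 5 neutrophil markers tested, 0 passed in either direction, with estimates above 0 for all 5, an unadjusted p under 0.05 for 4 and sums of 226 to 773 FPKM in control and of 590 to 1236 FPKM in Villin-WlscKO tumors. In the list of NF-kappaB and inflammatory cytokine genes, Tnfaip3, a feedback inhibitor of NF-kappaB, rose from 11.7 ± 2.26 to 22.0 ± 3.27 FPKM (mean ± SD, n = 5 tumors each; log2 change 0.85, limma adjusted p = 0.0033), which was 1 of 10 tested, and 0 fell. Il1b was at 45.3 ± 23.7 and 51.1 ± 29.7 FPKM (mean ± SD, n = 5 tumors each; limma adjusted p = 0.917).

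**Figure D3:**
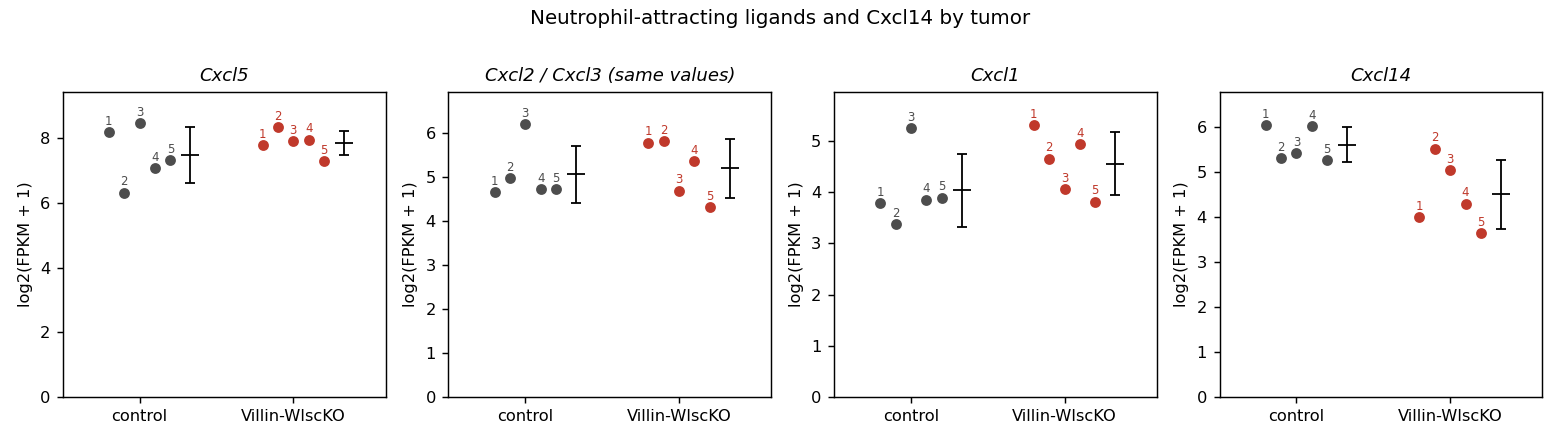
Values of the neutrophil-attracting ligands and of Cxcl14 as log2(FPKM + 1) (vertical axis) in control (grey) and Villin-WlscKO tumors (red), with tumor numbers beside the points and the mean ± SD as a bar beside each group. The groups overlap in all 4 panels, and control tumor 3 is the highest control tumor for Cxcl5, Cxcl2 or Cxcl3, and Cxcl1.

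Of the other inflammatory CC ligands, Ccl3, Ccl4, Ccl5, Ccl6 and Ccl9, 3 of 5 rose. They are neighbours on chromosome 11, from 83525778 to 83664683. Ccl5, made by T cells, NK cells and macrophages, was at 1.87, 0, 0.277, 0.994 and 0.824 FPKM in control tumors 1 to 5 and at 11.3, 35.4, 37.7, 16.8 and 23.5 FPKM in Villin-WlscKO tumors 1 to 5. Every Villin-WlscKO tumor was well above every control tumor. Its mean rose from 0.793 ± 0.724 to 24.9 ± 11.5 FPKM (mean ± SD, n = 5 tumors each), a log2 change of 3.82 (SE 0.36, limma adjusted p = 0.000133).

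Ccl6, a ligand of Ccr1 made by myeloid and other cells in mice, was already abundant in control tumors. It was at 48.7, 119, 99.1, 66.9 and 131 FPKM in control and at 211, 218, 195, 275 and 202 FPKM in Villin-WlscKO tumors. The Villin-WlscKO tumors lay close together and above all control tumors. The mean level rose from 93.1 ± 34.8 to 220.3 ± 31.9 FPKM (mean ± SD, n = 5 tumors each), a log2 change of 1.31 (SE 0.25, limma adjusted p = 0.00796). Ccl9, a close relative beside Ccl6, was at 1.81, 6.23, 8.43, 14.7 and 7.11 FPKM in control and at 30.1, 27.2, 16.02, 36.3 and 17.5 FPKM in Villin-WlscKO tumors. The highest control tumor and the lowest Villin-WlscKO tumor almost met. It thus rose from 7.66 ± 4.66 to 25.4 ± 8.56 FPKM (mean ± SD, n = 5 tumors each), a log2 change of 1.74 (SE 0.41, limma adjusted p = 0.0214), which missed the threshold without Villin-WlscKO tumors 2 and 3 (adjusted p = 0.0628) and without control tumor 2.

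The other members of this branch, Ccl3 and Ccl4, did not pass. Ccl3 was at 6.42 ± 2.64 and 3.50 ± 0.868 FPKM (mean ± SD, n = 5 tumors each), a log2 difference of -0.66 (limma adjusted p = 0.129), and was called lower without control tumor 3. Ccl4 was at 3.30 ± 2.22 and 4.10 ± 1.77 FPKM (mean ± SD, n = 5 tumors each; limma adjusted p = 0.592). Ccl5 was thus below Ccl3 in 5 of 5 control tumors and above it in 5 of 5 Villin-WlscKO tumors. Of 8 macrophage and monocyte markers tested, 1, Cd14, rose and 0 fell, and their sums were 302 to 720 FPKM in control and 288 to 546 FPKM in Villin-WlscKO tumors.

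Among the monocyte- and eosinophil-attracting ligands, 1 of 6 passed. Ccl8, a chemoattractant of monocytes and T cells in the cluster from 82035571 to 82305690 of chromosome 11, was at 8.65, 3.19, 13.9, 18.8 and 7.59 FPKM in control tumors 1 to 5 and at 20.2, 70.6, 111, 52.5 and 31.1 FPKM in Villin-WlscKO tumors 1 to 5. The groups did not overlap, but Villin-WlscKO tumor 1 was close to control tumor 4. Its level rose from 10.4 ± 6.03 to 57.0 ± 35.7 FPKM (mean ± SD, n = 5 tumors each), a log2 change of 2.30 (SE 0.50, limma adjusted p = 0.0162). Without Villin-WlscKO tumors 2 and 3 the change was 1.72 (adjusted p = 0.0823).

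Ccl2 and Ccl7, the principal ligands of Ccr2, had means 2.99 and 2.98 times as high in Villin-WlscKO tumors, but did not pass. Ccl2 was at 5.78 ± 2.92 and 17.3 ± 9.59 FPKM (mean ± SD, n = 5 tumors each), a log2 difference of 1.33 (SE 0.43, limma adjusted p = 0.0785). Ccl7 was at 3.71 ± 2.30 and 11.1 ± 5.26 FPKM (mean ± SD, n = 5 tumors each), a log2 difference of 1.32 (SE 0.42, limma adjusted p = 0.0742). In both, Villin-WlscKO tumor 5, at 4.70 and 3.12 FPKM, was within the control range, and both passed when it was left out. The eosinophil attractants Ccl11 and Ccl24 and the monocyte attractant Ccl12 did not pass, with means from 1.68 to 5.42 FPKM in control and from 2.58 to 3.22 FPKM in Villin-WlscKO tumors, and Ccl24 was the only gene of the branch with an estimate below 0 (log2 difference -0.64, limma adjusted p = 0.252).

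Of the other CXC and CX3C ligands, 0 of 7 passed, and Cxcl14 and Cxcl16 reached an unadjusted p under 0.05. Cxcl14, an epithelial chemokine on chromosome 13 from 56288643 to 56296551 that attracts monocytes and dendritic cells, had the lowest estimate of the chemokine genes tested on the log2(FPKM + 1) scale, which understates the change of low genes such as Cxcl15. It was at 64.6, 38.5, 41.7, 63.5 and 37.5 FPKM in control tumors 1 to 5 and at 15.0, 44.7, 31.9, 18.6 and 11.5 FPKM in Villin-WlscKO tumors 1 to 5. All Villin-WlscKO tumors but tumor 2 were below every control tumor. The means were 49.2 ± 13.7 and 24.4 ± 13.8 FPKM (mean ± SD, n = 5 tumors each), a log2 difference of -1.11 (SE 0.34, limma adjusted p = 0.0640). It was called lower without Villin-WlscKO tumor 2 (log2 change -1.36) and without tumors 2 and 3 (log2 change -1.63, adjusted p = 0.00631).

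Cxcl16, the membrane-bound ligand of Cxcr6, was at 30.5 ± 2.72 and 39.4 ± 8.86 FPKM (mean ± SD, n = 5 tumors each; limma adjusted p = 0.178). Cx3cl1, or fractalkine, was at 22.3 ± 3.87 and 22.5 ± 5.54 FPKM (mean ± SD, n = 5 tumors each), with a log2 difference of 0.00 and a 95% confidence interval from -0.37 to 0.38. Cxcl12, the stromal ligand of Cxcr4, was at 3.22 to 5.63 FPKM in control and at 3.46 to 19.1 FPKM in Villin-WlscKO tumors. Here tumors 2 and 3 carried the upper end, and the log2 difference was 0.77 with them and 0.20 without them. The same pair set Cxcl17, a mucosal chemokine, with 11.8 and 5.72 FPKM against at most 1.34 FPKM in the other 8 tumors, and its log2 difference was 1.36 with them and 0.29 without them. Cxcl15 was uneven in the opposite group, at 3.13 and 5.31 FPKM in control tumors 4 and 5 and at most 0.487 FPKM in the other 8 tumors, with a log2 difference of -0.96 (limma adjusted p = 0.210) and means of 1.87 and 0.154 FPKM. Cxcl13, a B cell attractant, was at 2.19 ± 0.797 and 3.01 ± 1.59 FPKM (mean ± SD, n = 5 tumors each; limma adjusted p = 0.592). B and plasma cell markers were at sums of 105 to 246 FPKM in control and of 207 to 533 FPKM in Villin-WlscKO tumors, with Mzb1 and Xbp1 higher, 2 of 6 tested, and 0 lower. Xbp1 and Jchain made up most of these sums. The cells that carried Xbp1 were not determined, so its rise need not describe B or plasma cells. Xbp1 was at 101 ± 14.4 and 153 ± 18.1 FPKM and Jchain at 50.9 ± 39.0 and 197 ± 133 FPKM (mean ± SD, n = 5 tumors each). The B cell markers Cd79a, Cd79b and Ms4a1, with means of at most 1.32 FPKM in either group, did not pass.

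The CC ligands of lymphocytes and dendritic cells numbered 8, and 0 of the 7 tested passed or reached an unadjusted p under 0.05. Ccl20, the epithelial ligand of Ccr6, was at 6.001 ± 3.49 and 10.5 ± 4.23 FPKM (mean ± SD, n = 5 tumors each; log2 difference 0.80, limma adjusted p = 0.244). Ccl28, an epithelial ligand for plasma cells, was at 9.30 ± 2.75 and 13.9 ± 8.56 FPKM (mean ± SD, n = 5 tumors each; limma adjusted p = 0.680), and 2 unnamed gene models share its values. Ccl21a, a lymphatic ligand of Ccr7 with near-identical copies that reads can be split over, was at 9.52 to 17.7 FPKM in control tumors and at 12.7, 39.4, 90.9, 12.4 and 51.3 FPKM in Villin-WlscKO tumors (limma adjusted p = 0.207). Its Villin-WlscKO values were thus split, with 2 tumors in the control range, and the log2 difference went from 1.08 to 0.47 without tumors 2 and 3. Of 4 lymphatic endothelial markers 0 passed. They summed to 61.2 to 95.04 FPKM in control and to 54.3 to 70.2 FPKM in Villin-WlscKO tumors. Prox1 made up most of this sum, at 68.9 ± 13.0 and 49.5 ± 9.83 FPKM (mean ± SD, n = 5 tumors each; log2 difference -0.47, limma adjusted p = 0.104). The cells that carried Prox1 were not determined, so the sum need not describe lymphatic endothelium. The estimates of the other 3, Lyve1, Pdpn and Flt4, were above 0. Ccl17, Ccl22, Ccl25 and Ccl27a had means between 1.19 and 4.75 FPKM in control and between 1.48 and 4.42 FPKM in Villin-WlscKO tumors. Of 4 dendritic cell markers, which include cells that make Ccl17 and Ccl22, 0 passed, with sums of 7.75 to 16.8 and of 5.20 to 15.0 FPKM. Ccl1, below the filter, was at 0 to 0.632 FPKM in control and at 0.232 to 0.999 FPKM in Villin-WlscKO tumors, so that the groups overlapped (exact permutation test, p = 0.0238).

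Receptors had lower levels than the leading ligands, and 2 of 8 tested passed. Ccr2, the receptor of inflammatory monocytes, was at 0.888, 0.743, 0.852, 1.09 and 0.686 FPKM in control tumors 1 to 5 and at 1.62, 4.76, 5.99, 3.34 and 1.26 FPKM in Villin-WlscKO tumors 1 to 5. The groups did not overlap, and tumors 1 and 5 of Villin-WlscKO were near the controls. The mean rose from 0.852 ± 0.156 to 3.39 ± 2.02 FPKM (mean ± SD, n = 5 tumors each), a log2 change of 1.12 (SE 0.29, limma adjusted p = 0.0342). This call was lost in 9 of the 21 alternatives in which it was tested, among them each control tumor left out in turn, Villin-WlscKO tumors 2, 3 and 4 each left out, and tumors 2 and 3 left out together (log2 change 0.68, adjusted p = 0.0981).

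Cxcr6, the receptor of Cxcl16 on resident and effector T cells, was at 0.692, 0.577, 0.392, 0.892 and 0.421 FPKM in control and at 1.00, 2.70, 2.50, 2.15 and 0.772 FPKM in Villin-WlscKO tumors. Villin-WlscKO tumor 5 fell within the control range. Cxcr6 overlaps Fyco1, and Cx3cr1 overlaps 5 other genes, on one or both strands. The mean of Cxcr6 rose from 0.595 ± 0.206 to 1.82 ± 0.882 FPKM (mean ± SD, n = 5 tumors each), a log2 change of 0.77 (SE 0.22, limma adjusted p = 0.0497). The call was the most marginal of the 8 and was lost in 11 of the 21 alternatives in which it was tested, with the largest adjusted p of 0.195 without Villin-WlscKO tumors 2 and 3.

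Cxcr3, the receptor of the interferon-linked trio, lies on chromosome X and was below the filter. It was at 0.409, 0.137, 0.101, 0.146 and 0.104 FPKM in control and at 0.376, 0.513, 1.29, 0.609 and 1.30 FPKM in Villin-WlscKO tumors. Control tumor 1 was above Villin-WlscKO tumor 1, and all other Villin-WlscKO tumors were above all control tumors. The difference of mean log2(FPKM + 1) was 0.60 (exact permutation test, p = 0.0159), and limma without a filter gave an adjusted p of 0.051. Cxcr2, the receptor of the neutrophil-attracting ligands, was at 2.199, 0.845, 2.70, 1.92 and 1.32 FPKM in control and at 2.62, 5.47, 3.35, 2.63 and 2.41 FPKM in Villin-WlscKO tumors. These groups overlapped through control tumor 3. The log2 difference was 0.62 (SE 0.23, limma adjusted p = 0.115).

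Of the remaining receptors Ccr1, Ccr7, Cxcr4 and Cx3cr1, 0 passed, and Ccr7 reached an unadjusted p under 0.05. Ccr1, which binds Ccl6 and Ccl9, was at 5.01, 3.87, 4.67, 6.69 and 3.82 FPKM in control and at 4.88, 9.09, 5.78, 6.29 and 3.21 FPKM in Villin-WlscKO tumors (log2 difference 0.20, limma adjusted p = 0.624). Ccr7, which guides dendritic and naive T cells, was at 0.854, 0.819, 0.675, 0.422 and 0.410 FPKM in control and at 0.658, 2.29, 1.70, 1.26 and 0.843 FPKM in Villin-WlscKO tumors (log2 difference 0.49, limma adjusted p = 0.141). Cxcr4, the receptor of Cxcl12, was at 12.6, 6.39, 8.86, 8.59 and 6.23 FPKM in control and at 4.40, 10.4, 8.50, 4.51 and 4.52 FPKM in Villin-WlscKO tumors (log2 difference -0.39, limma adjusted p = 0.377). Cx3cr1, the fractalkine receptor, was at 4.38, 2.26, 2.23, 4.62 and 2.95 FPKM in control and at 1.64, 3.47, 5.27, 2.59 and 1.29 FPKM in Villin-WlscKO tumors (log2 difference -0.21, limma adjusted p = 0.702). The groups overlapped for each of these 4 receptors, and the highest Villin-WlscKO value of each was in tumor 2 or 3. Without this pair the log2 differences were -0.019 for Ccr1, 0.23 for Ccr7, -0.76 for Cxcr4 (limma adjusted p = 0.0657) and -0.58 for Cx3cr1, and 0 of the 4 passed.

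**Figure D4:**
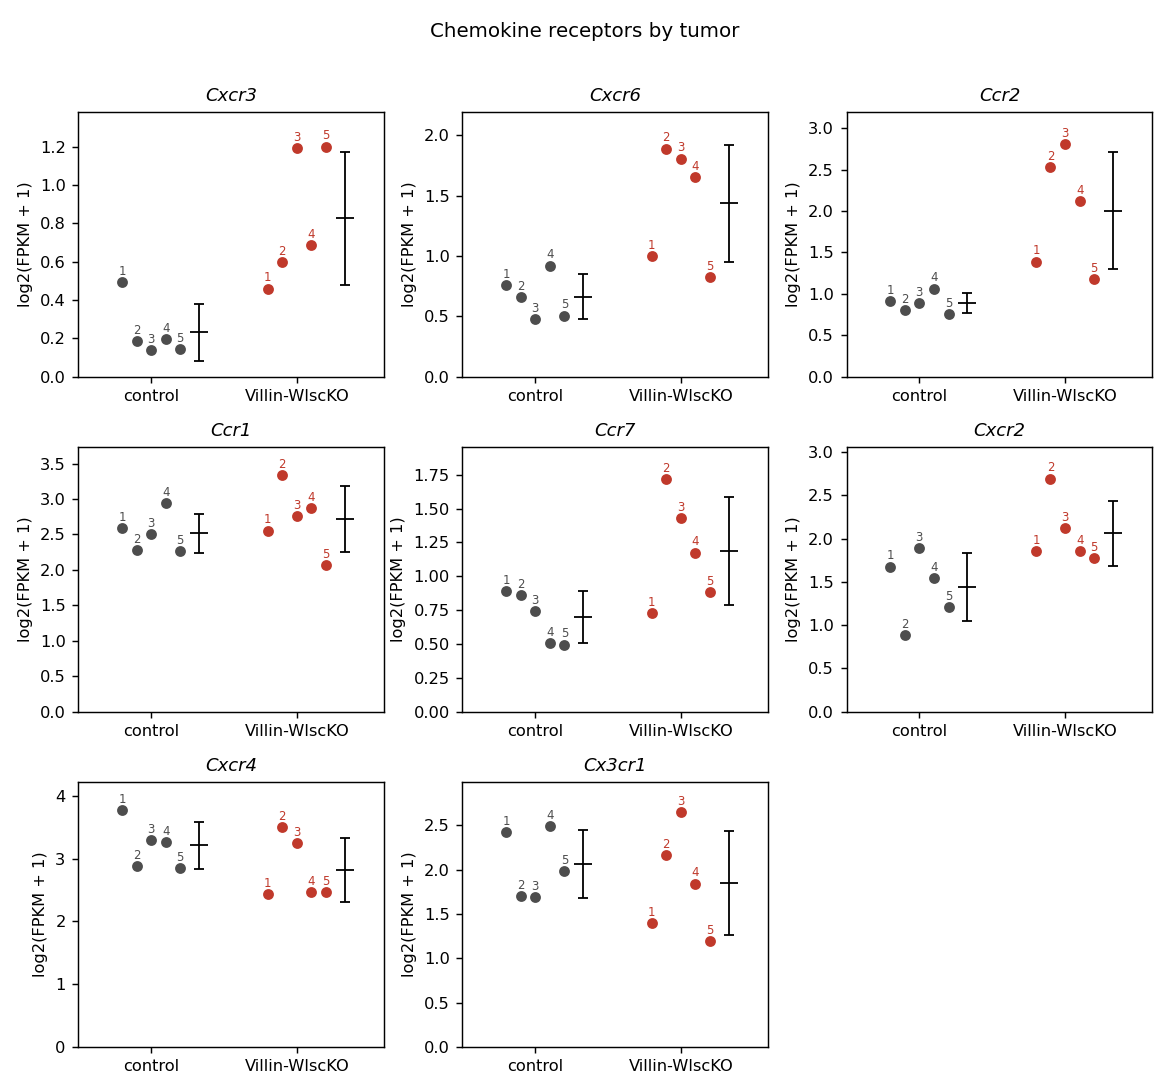
Values of 8 receptors as log2(FPKM + 1) (vertical axis) in control (grey) and Villin-WlscKO tumors (red), with tumor numbers beside the points and the mean ± SD as a bar beside each group. Ccr2 is the receptor whose groups do not overlap, and Villin-WlscKO tumors 2 and 3 are the highest of their group for Ccr2, Cxcr6, Ccr7, Cxcr2, Cxcr4 and Cx3cr1.

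Ordered by mean FPKM, Cxcl5 and Ccl6 led the ligands in both groups. Cxcl14 was the third ligand in control tumors and ranked 12 in Villin-WlscKO tumors, where Ccl8 was the third. Cxcl9 moved from rank 30 of 33 ligands to rank 8, Ccl5 from 29 to 11 and Cxcl10 from 22 to 10. Cxcl5 was above Ccl6 in 4 of 5 control and in 3 of 5 Villin-WlscKO tumors, so that their order did not separate the groups. The levels of Cxcl9, Cxcl10, Ccl5 and Ccl9 in Villin-WlscKO tumors, with means from 24.9 to 27.2 FPKM, differed from each other by less than their SD. Of the receptors, Cxcr4 and Ccr1 led in both groups and Cxcr3 was the lowest in both. All ligands, with Cxcl2 and Cxcl3 counted once, summed to 426 to 776 FPKM in control and to 683 to 1118 FPKM in Villin-WlscKO tumors, and these ranges overlapped.

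**Figure D5:**
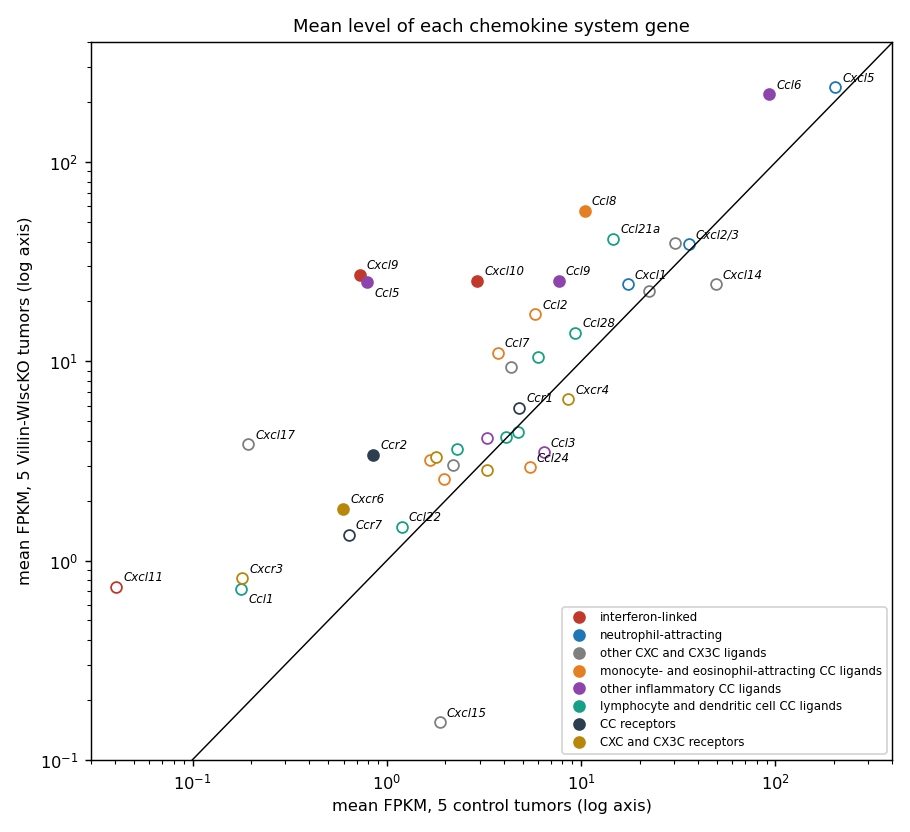
Mean FPKM in 5 control tumors (horizontal axis, log scale) against mean FPKM in 5 Villin-WlscKO tumors (vertical axis, log scale) for the chemokine genes, coloured by role, with Cxcl2 and Cxcl3 as a single point, the line of equal means and no label for genes in the crowded middle. Filled points passed an adjusted p of 0.05, and Cxcl9, Ccl5 and Cxcl10 lie far above the line while Cxcl5 lies near it.

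The chemokine values also varied among the Villin-WlscKO tumors. Tumors 2 and 3 were both above the other 3 for 17 of the 42 genes (40.5%) and both below them for 0, whereas 16.2% of all names in the table, 2737, had both above. The 17 genes included Ccl5, Ccl8, Ccr2 and Cxcr6 of those that rose, and 7 of the 9 receptors. Cxcl9, Cxcl10, Ccl6 and Ccl9 were not among them. Villin-WlscKO tumor 5 was the lowest of its group for 22 genes. The 5 tested squamous markers had sums of 80.4 to 191.5 FPKM in control and of 113 to 1369 FPKM in Villin-WlscKO tumors, with 1, Sprr1a, higher and 0 lower. Sprr1a was at 17.2 to 113 FPKM in control and at 104 to 145 FPKM in Villin-WlscKO tumors, so its rise was not particular to tumors 2 and 3. Krt5, Krt14, Krt6a and Trp63 did not pass. The part of squamous tissue in the chemokine values was not tested. Fibroblast, endothelial and smooth muscle markers gave 0 calls in 6, 5 and 5 genes tested. Their sums were 278 to 1010.0 and 378 to 1150.0 FPKM for fibroblasts, 11.4 to 42.1 and 11.4 to 42.8 FPKM for endothelium, and 57.0 to 121 and 67.8 to 136 FPKM for smooth muscle, control before Villin-WlscKO.

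By position, 28 of the 42 genes lay in 7 clusters with gaps of at most 1000000 bases. Of those called higher, 3 of 5 genes were in the Ccl5 to Ccl4 cluster of chromosome 11, 2 of 3 in the Cxcl9 cluster of chromosome 5, 1 of 6 in the Ccl2 cluster of chromosome 11 and 2 of 4 in the receptor cluster of chromosome 9 that holds Cxcr6, Ccr1 and Ccr2. The Cxcl5 cluster of chromosome 5 held 0 of 5, and the clusters around Ccl17 on chromosome 8 and around Ccl21a on chromosome 4 held 0 of 3 and 0 of 2. Of the 14 genes that lay alone, 0 were called.

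Genes of signal transduction behind the receptors were read from a list of 16. Of these genes, tested for G proteins, kinases, arrestins and regulators of migration, Ptk2b, Vav1 and Elmo1 rose and 0 fell. Ptk2b, a focal adhesion kinase relative activated by chemokine receptors, rose from 10.99 ± 2.19 to 18.3 ± 2.33 FPKM (mean ± SD, n = 5 tumors each; log2 change 0.70, limma adjusted p = 0.00705). Vav1, an exchange factor of leukocytes, rose from 6.45 ± 1.24 to 9.33 ± 0.750 FPKM (mean ± SD, n = 5 tumors each; log2 change 0.49, limma adjusted p = 0.0283). The median log2 change of the list was 0.18.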

How the data were processed

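Messenger RNA of 5 control and 5 Villin-WlscKO AOM/DSS colon tumors had been sequenced from stranded libraries. Per the labels, the authors used FastQC, TopHat2 2.1.1, Cufflinks 2.2.1 and Cuffdiff on GRCm38.p5, and deposited FPKM per gene name and tumor. No read numbers could be recovered (of 112 low genes compared between control tumors 1 and 2, at most 6 shared a ratio), so depth and counting error are unknown. Of the names, 2419 share all values with another name.

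The members, roles and lists were chosen with earlier results of these data known. FPKM were analysed as log2(FPKM + 1), with a pseudocount of 1 and a mean of at least 0.5 FPKM, with limma 3.58.1 in R 4.3.3 (eBayes with a trend, two-sided, Benjamini-Hochberg over 16757 genes), which was tested on simulated data. Cuffdiff needs reads and was not rerun. Full values are given for interferon-linked and neutrophil-attracting genes, genes past the threshold or without overlap, the 3 highest ligands and receptors of control tumors, and named receptors; any other gene was named with its values known. Lists covered interferon-gamma signal, NF-kappaB, signal transduction, other chemokine genes and 12 cell types. Exact permutation tests used Python 3.11.15. Correlations of deviations between tumors of the same number were 0.064, -0.087, 0.063, 0.10 and 0.16. Tumors of different numbers were not compared, so these values cannot settle whether the numbers pair tumors. The main fit used no pairing. The 22 alternatives were other pseudocounts, scalings, filters and eBayes settings, tumor weights, identical entries once, a replicate block and tumors left out. Genes are placed by GENCODE M21. Some items are counted where a rule includes them but are not reported here by name.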

Additional observations from a re-analysis of the deposited data

Results flagged for a closer look

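In 3 of 82 groups of 5 tumors checked among the chemokine genes, 1 tumor lay far from the other 4, by a gap of more than 0.71 of the range of the group. Chance alone gives about 1 in 20 such groups. Control tumor 3 had 37.2 FPKM of Cxcl1, where the other control tumors had 9.35 to 13.9 FPKM. The same tumor had 72.8 FPKM of the shared entry of Cxcl2 and Cxcl3, where the others had 24.2 to 30.6 FPKM. Both genes encode ligands of Cxcr2, and control tumor 3 was also the highest control tumor for Cxcl5 and Cxcr2. Control tumor 1 had 0.409 FPKM of Cxcr3, the receptor of Cxcl9 and Cxcl10, where the others had 0.101 to 0.146 FPKM, and it was also the highest control tumor for Cxcl9, Cxcl10 and Ccl5. The causes were not tested.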

How the results depend on the processing

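The 8 genes called higher and 0 called lower became 4 higher and 1 lower (Cxcl14) without Villin-WlscKO tumors 2 and 3. With 1 tumor left out at a time, 5 to 12 genes were called higher and 0 to 1 lower. The 5 were left without control tumor 2 and the 12 without Villin-WlscKO tumor 5, and the gene called lower was Ccl3 without control tumor 3 and Cxcl14 without Villin-WlscKO tumor 2. The remaining settings gave 6 to 10 higher calls and 0 lower ones: 6 with a mean FPKM of at least 5, where 21 of the genes were tested, 7 with median ratio scaling, 9 without a filter, where Cxcl11 was added, 10 with tumor weights, where Ccl2 and Ccl7 were added, and 8 in the others. The fit with the replicate block gave 8, with Ccl7 in place of Cxcr6, and changed no other call of a chemokine gene. Cxcl9, Cxcl10, Ccl5 and Ccl6 were called in all 22 alternatives, with adjusted p of at most 0.00141, 0.00831, 0.00623 and 0.0386. Among the estimates that changed sign were those of Ccr1, Cxcl13 and Ccl22 (-0.0194, -0.12 and -0.060 without Villin-WlscKO tumors 2 and 3) and Cxcl2 and Cxcl3 (-0.00979 and -0.0197 without Villin-WlscKO tumor 1 or 2, and up to 0.4235 without control tumor 3), none of them called. The number of genes with an estimate above 0, 32 of 39 in the main fit, also moved in other settings. It was 31 with median ratio scaling, quantile normalization or tumor weights, and without control tumor 4 or Villin-WlscKO tumor 3. It was 30 without control tumor 1 or Villin-WlscKO tumor 2, and 29 without Villin-WlscKO tumor 1. Over all genes, the share of calls that were higher was 56.3%, but 77.1% after scaling to a common FPKM sum and 44.3% after quantile normalization, and the median of all genes moved to 0.097 and -0.046 on the log2 scale, with 8 chemokine genes called higher in both. The causes were not tested. Low genes such as Cxcl11, Ccl1 and Cxcr3 are limited by an unknown number of reads.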

Other observations

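Chemokine-related genes outside the named families gave 0 calls in either direction among 12 tested in limma, 2 of them, Ackr1 and Ackr3, reached an unadjusted p under 0.05, and their median log2 change was -0.025. Ackr1, an atypical receptor of venules that takes up chemokines, was at 1.11 to 4.08 FPKM in control tumors and at 3.48 to 9.57 FPKM in Villin-WlscKO tumors (log2 difference 1.14, SE 0.33, limma adjusted p = 0.0512). Ackr3, an atypical receptor that scavenges Cxcl12, was at 9.91 ± 2.94 and 6.10 ± 2.69 FPKM (mean ± SD, n = 5 tumors each; log2 difference -0.66, limma adjusted p = 0.144).

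Of the platelet chemokines, Pf4 was at 33.8 ± 13.9 and 27.8 ± 5.53 FPKM (mean ± SD, n = 5 tumors each; limma adjusted p = 0.707). Ppbp was at 4.90 to 14.0 FPKM in control tumors and at 7.39, 223, 225, 5.79 and 0.972 FPKM in Villin-WlscKO tumors 1 to 5 (limma adjusted p = 0.528). The high values were those of tumors 2 and 3, which also carried Krt5, and their source was not tested. Ppbp was chosen after its values were seen.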
